A study of Mus musculus with 12 samples.

Results

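The 10 core clock genes Per1, Per2, Per3, Cry1, Cry2, Nr1d1, Nr1d2, Dbp, Tef and Arntl (written Bmal1 in the files) were examined in tongue tissue of mice that had received the carcinogen 4-nitroquinoline 1-oxide (4NQO). They were taken by name from a list of clock genes, and all 10 were found among the 32498 rows with a gene name and among the 16844 genes tested. C57BL/6 mice, bought at an age of 5 weeks, drank 4NQO at 100 µg/mL for 16 weeks. From week 4 they were gavaged 5 times per week with gallic acid (GA, a plant polyphenol) at 100 mg/kg or with the vehicle alone, a methyl cellulose and Tween-20 solution. Both groups therefore carried 4NQO exposure, and no group of unexposed mice was analysed here. There were 6 vehicle and 6 GA libraries, each of tongue tissue labelled as tumor and tumor-associated, and each was taken as 1 mouse because the labels number them but do not identify animals. The p-values measure only the spread between these samples. The labels and the study's methods give no time of day for the collection of the tongues, so the phase of a library is not known. Recovered library totals ran from 18039935 to 21769853 reads with vehicle and from 21236925 to 25191727 reads with GA.

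The mammalian clock is a loop of transcription and repression that runs in nearly every cell. ARNTL (BMAL1) pairs with CLOCK or NPAS2 and switches on genes that carry an E-box, among them the Per and Cry genes, whose proteins return to block the pair. The same pair switches on Nr1d1 and Nr1d2, which encode REV-ERB alpha and beta, repressors of Arntl, and Dbp and Tef, which encode activators that bind the D-box. In peripheral tissues Dbp and Nr1d1 transcripts are known to peak when Arntl is low, the Per transcripts peak somewhat later, and Cry1 later still. Over samples taken at unknown times, levels of these genes can therefore be set against each other gene by gene, and a library with much Dbp and little Arntl holds the opposite arrangement to one with little Dbp and much Arntl.

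Promoter windows from RefSeq (GRCm38.p6, 250 bases before to 50 bases from the annotated start) were matched by symbol to 9 of the 10 genes. Per2 had no entry, and Per1, Tef and Arntl had 2 windows each. Motifs of 6 kinds were searched on both strands, namely the E-box CACGTG, its variant CACGTT, the D-boxes TTATGTAA and TTACGTAA, the core TAGGTCA bound by REV-ERB and ROR proteins, and the cAMP response element TGACGTCA. The E-box stood in windows of 3 of the 9 genes (Per1, Tef and Cry1) and in 7.15% of all 32851 windows, and the variant in 3 of 9 (Cry1, Cry2 and Nr1d1) and in 4.68%. The D-box TTATGTAA occurred at 2 places in the Per3 window and in 0.938% of windows, and TAGGTCA lay in an Arntl window and in 2.61%. TTACGTAA, found in 0.119% of windows, and TGACGTCA, found in 1.79%, were in none of the 9. No motif of the search overlapped another in these windows. The Cry2 window is not printed, and its variant began 166 bases before the start. Dbp is the gene with the widest range of levels. The windows of 6 other genes with a motif, and that of Dbp, are given 5′ to 3′ on the strand of the gene, with the motifs in capitals.
Per1 (chr11:69098699-69098998, plus strand): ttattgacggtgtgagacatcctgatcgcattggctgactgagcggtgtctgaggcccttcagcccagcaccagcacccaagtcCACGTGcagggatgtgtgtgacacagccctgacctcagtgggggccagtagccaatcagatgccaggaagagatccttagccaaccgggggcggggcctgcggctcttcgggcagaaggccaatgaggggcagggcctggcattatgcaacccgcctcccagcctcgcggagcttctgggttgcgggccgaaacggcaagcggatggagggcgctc
Tef (chr15:81802423-81802722, plus strand): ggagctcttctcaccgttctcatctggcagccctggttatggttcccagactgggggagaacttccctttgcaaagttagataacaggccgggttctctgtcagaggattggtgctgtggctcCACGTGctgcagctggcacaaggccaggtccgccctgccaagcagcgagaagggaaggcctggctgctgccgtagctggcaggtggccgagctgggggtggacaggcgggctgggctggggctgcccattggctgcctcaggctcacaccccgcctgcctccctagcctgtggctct
Cry1 (chr10:85185005-85185304, minus strand): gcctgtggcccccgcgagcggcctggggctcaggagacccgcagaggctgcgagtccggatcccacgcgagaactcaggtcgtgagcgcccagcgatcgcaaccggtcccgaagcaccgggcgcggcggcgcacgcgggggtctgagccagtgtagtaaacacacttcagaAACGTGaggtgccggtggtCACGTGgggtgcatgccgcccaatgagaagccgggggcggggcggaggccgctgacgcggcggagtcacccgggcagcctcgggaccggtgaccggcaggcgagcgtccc
Nr1d1 (chr11:98775328-98775627, minus strand): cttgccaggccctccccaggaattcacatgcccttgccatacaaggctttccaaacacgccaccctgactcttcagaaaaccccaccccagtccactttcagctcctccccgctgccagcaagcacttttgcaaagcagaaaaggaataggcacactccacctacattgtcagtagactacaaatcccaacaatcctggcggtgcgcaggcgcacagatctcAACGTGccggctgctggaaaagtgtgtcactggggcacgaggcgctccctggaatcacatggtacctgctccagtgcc
Per3 (chr4:151044616-151044915, minus strand): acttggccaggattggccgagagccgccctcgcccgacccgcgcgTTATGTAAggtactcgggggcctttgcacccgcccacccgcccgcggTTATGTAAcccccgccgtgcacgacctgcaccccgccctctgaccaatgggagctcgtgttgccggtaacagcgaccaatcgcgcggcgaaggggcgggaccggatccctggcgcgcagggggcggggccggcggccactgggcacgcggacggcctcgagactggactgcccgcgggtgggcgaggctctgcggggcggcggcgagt
Arntl (chr7:113207261-113207560, plus strand): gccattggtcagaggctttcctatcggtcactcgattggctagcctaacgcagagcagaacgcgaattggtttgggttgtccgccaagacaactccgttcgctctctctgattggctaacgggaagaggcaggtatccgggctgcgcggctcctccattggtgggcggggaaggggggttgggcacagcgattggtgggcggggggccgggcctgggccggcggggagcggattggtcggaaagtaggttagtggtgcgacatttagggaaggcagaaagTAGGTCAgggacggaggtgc
Dbp (chr7:45704997-45705296, plus strand): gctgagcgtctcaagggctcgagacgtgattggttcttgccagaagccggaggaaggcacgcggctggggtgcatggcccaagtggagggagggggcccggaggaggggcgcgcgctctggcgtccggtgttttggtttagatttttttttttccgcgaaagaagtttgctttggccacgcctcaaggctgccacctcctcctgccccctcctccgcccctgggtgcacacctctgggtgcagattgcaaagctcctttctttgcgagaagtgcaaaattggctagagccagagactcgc
The E-box began 166 bases before the start in Per1, 127 in the Tef window shown and 60 in Cry1, where the variant lay 79 bases before the start. The other Tef window (chr15:81811164-81811463) held an E-box 138 bases before its start, and the other windows of Per1 and Arntl held none of the 6 motifs. The Per3 D-boxes began 205 and 158 bases before the start, and the Arntl core 30 bases after it. The Dbp window held none of the 6 letter strings, which says nothing of sites outside it.

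Levels are given as FPKM divided by a scaling factor of the library (scaled FPKM), a scale per exon length on which genes can be compared with each other. By mean over the 12 libraries Nr1d1 was the highest of the 10 at 18.2 scaled FPKM, followed by Tef at 11.7, Nr1d2 at 11.3, Cry1 at 6.52, Per1 at 4.17, Arntl at 3.73, Cry2 at 3.50, Dbp at 2.52, Per2 at 1.70 and Per3 at 1.27. Within single libraries, Nr1d1 exceeded Tef in 10 of 12, Nr1d2 exceeded Cry1 in 11, Cry1 exceeded Per1 in 10 and Cry2 exceeded Dbp in 10. Other neighbours in this order changed places often, with Tef above Nr1d2 in 7 of 12, Per1 above Arntl in 7, Arntl above Cry2 in 6, Dbp above Per2 in 6 and Per2 above Per3 in 8. The genes differed more in how widely they ranged. Dbp, the D-box activator, spanned 10.3-fold from the lowest to the highest library, Per2 8.68-fold and Per3 6.87-fold, whereas Cry2 spanned 1.86-fold and Per1 2.29-fold. The SD of the log2 level was 1.10 for Dbp, larger than that of 91.6% of the tested genes, and 0.30 for Cry2, larger than that of 37.3%. Every library held at least 47 reads on each of the 10 genes, so none of these levels rested on a handful of reads.

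**Figure D1:**
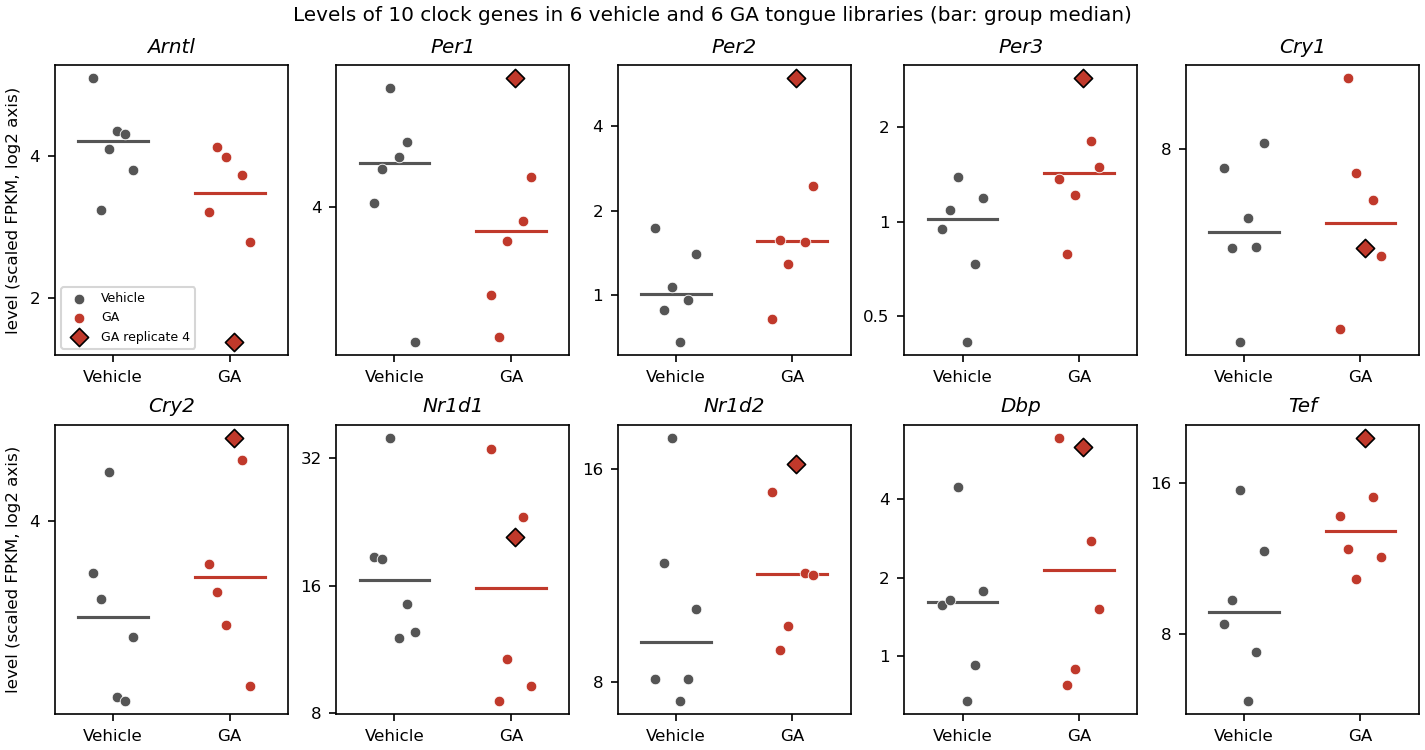
Level of each clock gene (vertical log2 axis, scaled FPKM) in 6 vehicle libraries (grey) and 6 GA libraries (red), with a bar at the group median and a diamond for GA replicate 4. Vehicle and GA points overlap in each of the 10 panels, and GA replicate 4 is at the top for Per1, Per2, Per3, Cry2 and Tef and at the bottom for Arntl.

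Arntl, the activator that the other 9 genes are read against, was at 3.08, 4.29 and 5.83 scaled FPKM (lowest, median and highest) with vehicle and at 1.61, 3.34 and 4.18 with GA. None of the 6 GA libraries reached the vehicle median. Dbp was at 0.670, 1.61 and 4.47 with vehicle and at 0.772, 2.14 and 6.90 with GA. Its high libraries were GA replicate 1 (6.90), GA replicate 4 (6.33) and vehicle replicate 3 (4.47), and its low ones came from both groups as well, vehicle replicate 4 (0.670) and GA replicate 2 (0.772). Tef, the D-box activator with the higher level, was at 5.88, 8.86 and 15.5 with vehicle and at 10.3, 12.8 and 19.7 with GA, and 6 of 6 GA libraries were above the vehicle median.

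Nr1d1 was at 12.04, 16.5 and 35.8 scaled FPKM with vehicle and at 8.55, 15.8 and 33.6 with GA. Its high libraries, vehicle replicate 3 and GA replicate 1, were also high for Dbp. Nr1d2, its paralog, was at 7.51, 9.11 and 17.7 with vehicle and at 8.86, 11.4 and 16.3 with GA. Of the repressors of the Per and Cry arm, Per1 was at 2.62, 4.59 and 5.83 with vehicle and at 2.65, 3.71 and 5.99 with GA. Per2 was at 0.683, 1.01 and 1.74 with vehicle and at 0.822, 1.57 and 5.93 with GA. The highest Per2 value came from GA replicate 4, and the next GA library, replicate 6, was at 2.45. Per3 was at 0.416, 1.02 and 1.38 with vehicle and at 0.789, 1.43 and 2.85 with GA. Cry1 was at 4.30, 6.13 and 8.15 with vehicle and at 4.49, 6.30 and 10.04 with GA. Cry2 was at 2.62, 3.19 and 4.49 with vehicle and at 2.72, 3.51 and 4.87 with GA. The groups overlapped for all 10 genes, and over all genes 12 of 16844 (0.0712%) had groups that did not overlap.

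The phase relation was first read from the correlations between the 10 genes over the 12 libraries, on log2(scaled FPKM + 0.1). Dbp, Nr1d1, Nr1d2, Tef, Per3 and Cry2 moved largely together, with a permutation p below 0.05 and a positive r in 13 of their 15 pairs (the exceptions were Nr1d1 with Per3 and with Tef). Cry1 and Arntl were on the other side of several of them. The group that moved together was read from these same correlations, so the 13 of 15 pairs describe it and do not test it. Dbp and Nr1d2 had a Pearson's r of 0.90 and a Spearman's rho of 0.84 (permutation p = 8e-05 and 0.00116), and of 16843 genes Nr1d2 had the highest r with Dbp. Nr1d1 came at place 11 (r = 0.83, rho = 0.84, permutation p = 0.00116 and 0.00108), Tef at place 27 (r = 0.80, rho = 0.73, permutation p = 0.00174 and 0.0084), Per3 at place 41 (r = 0.77, rho = 0.72, permutation p = 0.00193 and 0.0104) and Cry2 at place 51 (r = 0.76, rho = 0.73, permutation p = 0.00497 and 0.0101). By r the tightest pair of all was Per3 and Tef, with r = 0.90 and rho = 0.81 (permutation p = 0.00013 and 0.00219). Of 45 pairs computed, 24 had a permutation p below 0.05 for r, 15 of them positive and 9 negative. These p-values carry no adjustment over the pairs, and the genes share libraries and scaling. The share of such pairs among all genes was not computed, so the count has no background to be read against.

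Within each group, the relations of Dbp with Nr1d2 and Nr1d1 had an exact p below 0.05, and the others did so in at most 1 group. The r of Dbp with Nr1d2 was 0.92 in the 6 vehicle libraries and 0.97 in the 6 GA libraries (exact permutation p = 0.00833 and 0.00417), and that with Nr1d1 was 0.87 and 0.90 (exact permutation p = 0.0292 and 0.0361). Dbp and Tef had r = 0.96 with vehicle and 0.80 with GA (exact permutation p = 0.00139, the smallest that 6 libraries allow, and 0.0569). For Per3 they were 0.89 and 0.72 (exact permutation p = 0.025 and 0.101), for Cry2 0.94 and 0.63 (exact permutation p = 0.0167 and 0.186) and for Cry1 -0.48 and -0.80 (exact permutation p = 0.306 and 0.0556). Without the 2 libraries farthest from the median of Dbp, r was 0.86 with Nr1d2, 0.82 with Nr1d1, 0.74 with Tef, 0.74 with Per3 and 0.78 with Cry2. Leaving out GA replicate 4 gave 0.87, 0.87, 0.73, 0.68 and 0.68 for the same genes.

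Cry1, known to peak later than Dbp, Nr1d1 and the Per genes, went against 3 of these 6 genes, with a permutation p below 0.05. Its r was -0.72 with Nr1d1 (rho -0.55, permutation p = 0.00828 and 0.0701), -0.67 with Nr1d2 (rho -0.68, permutation p = 0.0175 and 0.0185) and -0.64 with Dbp (rho -0.54, permutation p = 0.026 and 0.0755). The highest Cry1 library, GA replicate 2, had the lowest Nr1d1 of the 12, and the lowest Cry1 library, vehicle replicate 3, had the highest Nr1d1. Without the 2 libraries farthest from the median of Nr1d1, its r with Cry1 was -0.40, so that pair rested largely on such libraries, while without GA replicate 4 it stayed at -0.71. Cry1 and Cry2, paralogs with different known phases, had r = -0.23 (rho -0.22, permutation p = 0.481 and 0.5).

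**Figure D2:**
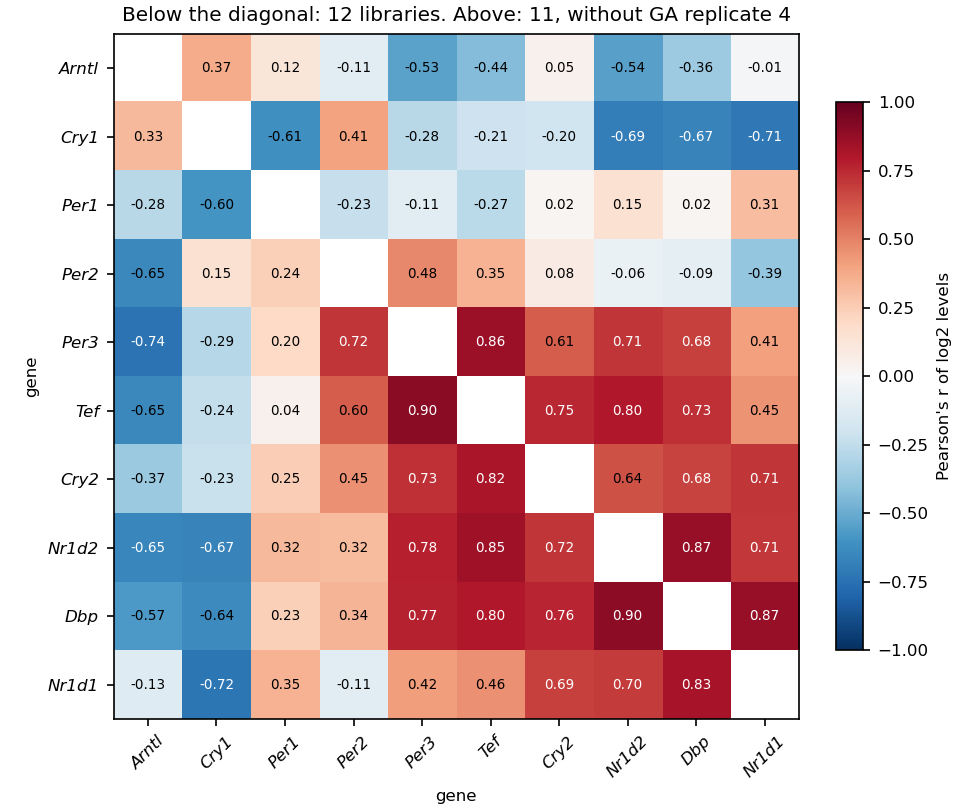
Pearson's r between the log2 levels of each pair of the 10 clock genes, over 12 libraries below the diagonal and over 11 libraries without GA replicate 4 above it. The block of Per3, Tef, Cry2, Nr1d2, Dbp and Nr1d1, grouped by these r values, is positive on both sides of the diagonal. The r of Arntl and Per2 goes from -0.65 to -0.11.

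Arntl had its lowest r with Per3 (-0.74, rho -0.79, permutation p = 0.00782 and 0.003), at place 28 from the lowest of 16843 genes. It followed with Nr1d2 (r = -0.65, rho = -0.76, permutation p = 0.0174 and 0.00633), Per2 (r = -0.65, rho = -0.27, permutation p = 0.0366 and 0.389), Tef (r = -0.65, rho = -0.60, permutation p = 0.0222 and 0.0431) and Dbp (r = -0.57, rho = -0.61, permutation p = 0.0473 and 0.0401). With Nr1d1, the direct repressor of Arntl, r was -0.13 (rho -0.19, permutation p = 0.697 and 0.556). The r values, more than the ranks, leaned on GA replicate 4, which had the lowest Arntl of the 12 at 1.61 scaled FPKM against 2.63 in the next. When it was left out, r was -0.53 with Per3, -0.54 with Nr1d2, -0.44 with Tef, -0.36 with Dbp and -0.11 with Per2, and no pair with Arntl had a permutation p below 0.05 for r. By rank, the rho without it was -0.73 with Per3 and -0.75 with Nr1d2 (permutation p = 0.0142 and 0.0118), and -0.51 with Dbp, -0.48 with Tef and -0.05 with Per2 (permutation p = 0.115, 0.137 and 0.88). Without the 2 libraries farthest from the Arntl median, r was -0.61 with Per3, -0.46 with Nr1d2, -0.40 with Per2, -0.37 with Tef and -0.44 with Dbp. Within the vehicle group r ranged from -0.47 with Nr1d2 to 0.43 with Per2, and no exact permutation p was below 0.05. In the GA group, 3 of the 9 pairs had an exact permutation p below 0.05, those with Per1 (r = -0.86, p = 0.0292), Per3 (r = -0.84, p = 0.0417) and Nr1d2 (r = -0.83, p = 0.025). That group includes GA replicate 4, and r with Per1 over the 11 libraries without it was 0.12. The GA group was not read without it.

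Per2 and Per1 stood apart from Dbp. Per2 had its highest r with Per3 (0.72, rho 0.50, permutation p = 0.0124 and 0.104), which was 0.48 without GA replicate 4 and 0.19 without the 2 libraries farthest from the Per3 median. It had r = 0.34 with Dbp (rho 0.11, permutation p = 0.285 and 0.734) and -0.09 without GA replicate 4. GA replicate 1 showed the split, with the highest Dbp of the 12 (6.90 scaled FPKM) and a Per2 of 0.822, the second lowest. GA replicate 6 had a Per2 of 2.45 beside a Dbp of 1.51, at place 8 of 12 from the highest, and an Nr1d1 of 9.27, the second lowest. Per2 and Nr1d1 had r = -0.11 (rho -0.17, permutation p = 0.756 and 0.605). Over the 12 libraries Per1 had a permutation p below 0.05 with 1 gene, Cry1 (r = -0.60, rho = -0.61, permutation p = 0.0408 and 0.0397), and r fell to -0.21 without the 2 libraries farthest from the Per1 median. Within the GA group Per1 had r = 0.91 with Per3 and 0.86 with Per2 (exact permutation p = 0.0208 and 0.0319). With vehicle the same pairs had r = -0.15 and -0.49 (exact permutation p = 0.746 and 0.324). The GA group includes GA replicate 4, the highest of the 12 for Per1, Per2 and Per3. Over the 11 libraries without it these pairs had r = -0.11 and -0.23, so the contrast between groups may rest on that library.

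**Figure D3:**
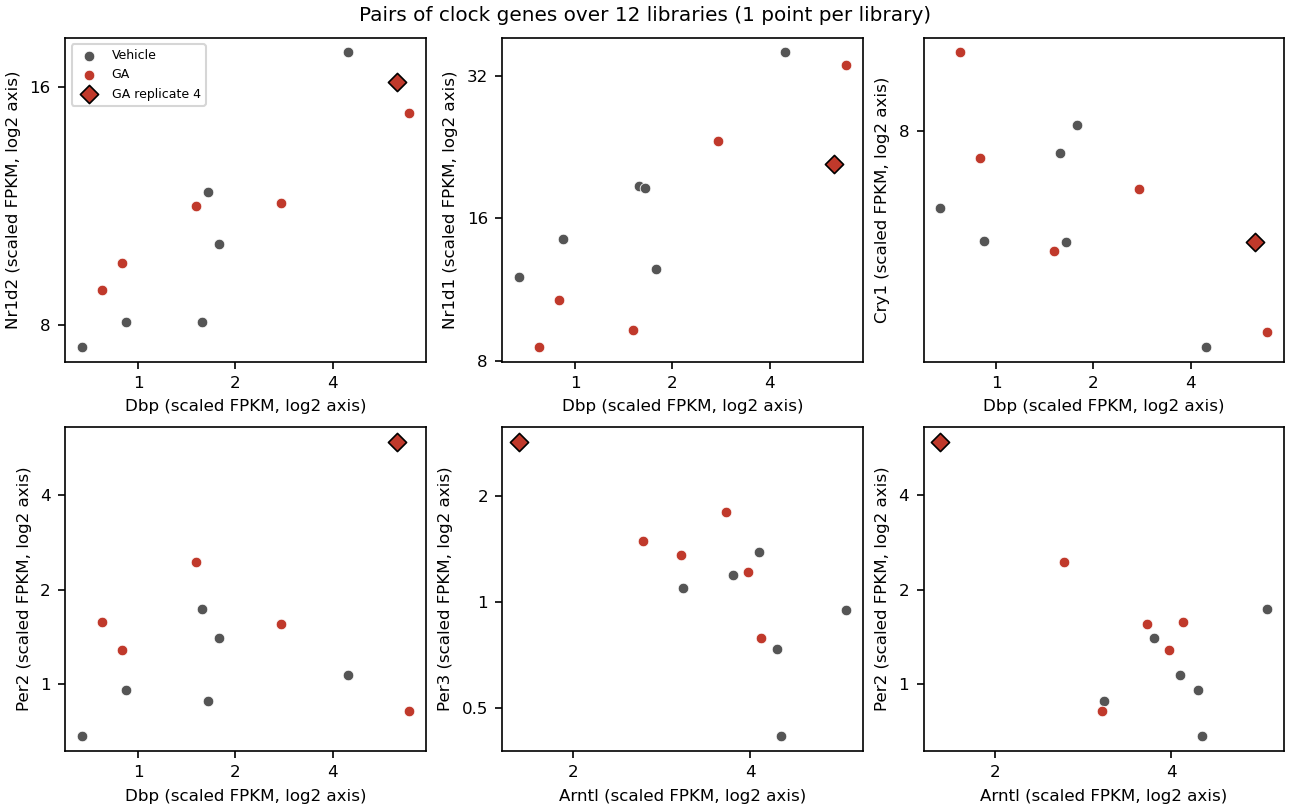
Levels of pairs of clock genes (scaled FPKM, both axes log2), 1 point per library, vehicle in grey, GA in red and GA replicate 4 as a diamond. Nr1d2 and Nr1d1 rise along Dbp and Cry1 falls, while in the panel of Per2 against Arntl the diamond stands alone at 5.93 and 1.61.

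Read by library, the arrangement was widest between GA replicate 4 and vehicle replicate 4. GA replicate 4 held the highest level of 5 of the 10 genes and the lowest Arntl, and its log2 Dbp level exceeded its log2 Arntl level by 1.91. Vehicle replicate 4 held the lowest level of 5 of the 10 genes, with a log2 Dbp level below that of Arntl (difference -2.58). GA replicate 1 (1.15) and vehicle replicate 3 (0.11) were the other libraries with Dbp above Arntl, and both groups had libraries at -2.15 or below, vehicle replicate 5 (-2.15) and GA replicate 2 (-2.30).

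To set the clock genes against all other genes, the log2 level of every gene was fitted on that of Arntl beside the group with limma. At an adjusted p below 0.1, 0 of 16843 genes (0%) and 0 of 9 clock genes were called, and the smallest adjusted p was 1.00. Before adjustment, 230 genes (1.37%) had a limma p below 0.05, with them 2 of the 9 clock genes, Per3 and Nr1d2. The slope of Per3, in log2 units per log2 unit of Arntl, was -0.88 (SE 0.35, adjusted p = 1.00 in limma), and that of Nr1d2 was -0.62 (SE 0.25). Dbp had a slope of -1.47 (SE 0.69) and Per2 one of -0.94 (SE 0.47). In all 8 of the 9 slopes were below 0 with a median of -0.51, where over all genes 8293 were above 0, 8550 were below 0 and the median was 0.00 at 2 decimals. Without GA replicate 4, 586 genes (3.48%) and 0 of the 9 had an unadjusted p below 0.05, and the slope of Per2 was 0.20 (SE 0.56) in place of -0.94. The count was also 0 of 9 without GA replicate 2 (1.1% of all genes) and 1 without GA replicate 3 (1.35%), and it was 4 of 9 without vehicle replicate 3 (1.45%) and without GA replicate 1 (1.33%). The slope on Arntl was also compared between the groups. No gene passed at an adjusted p below 0.1 (0 of 16843, 0%), and before adjustment 1379 genes (8.19%) had a limma p below 0.05, with them 1 of 9 clock genes, Per2, with a slope lower by 2.15 in the GA group (SE 0.88, adjusted p = 0.593 in limma). That difference was -1.09 (SE 1.16) when GA replicate 4 was left out. At that unadjusted p, clock genes numbered 0 without GA replicate 4 (1325 of 16847 genes) or vehicle replicate 1 (386 of 16852). They also numbered 0 without vehicle replicate 2 (2576 of 16846), where this comparison called 5 genes, none of them a clock gene.

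The same fit was made on Dbp, chosen for its wide range after the levels had been seen. Again 0 of 16843 genes (0%) and 0 of 9 clock genes had an adjusted p below 0.1, with a smallest adjusted p of 0.366 in limma. Before adjustment, 1355 genes (8.04%) had a p below 0.05, with them 6 of the 9 clock genes, Nr1d1, Nr1d2, Tef, Per3, Cry2 and Cry1. By this p, Nr1d1 came at place 2 of 16843 genes, Nr1d2 at 3, Tef at 12 and Per3 at 65. Per log2 unit of Dbp, Nr1d1 had a slope of 0.56 (SE 0.09, adjusted p = 0.366 in limma), Per3 0.39 (SE 0.11), Nr1d2 0.32 (SE 0.06), Tef 0.31 (SE 0.07) and Cry2 0.20 (SE 0.07), and Cry1 had a slope of -0.22 (SE 0.08). Arntl was at -0.20 (SE 0.10, adjusted p = 0.637 in limma). The slopes of Per2 (0.17, SE 0.19) and Per1 (0.11, SE 0.10) had 95% intervals from -0.25 to 0.59 and from -0.12 to 0.34. Without GA replicate 4, 1722 genes (10.2%) and the same count of 6 of 9 clock genes had an unadjusted p below 0.05 in limma, with slopes of 0.63 for Nr1d1 and 0.32 for Nr1d2.

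**Figure D4:**
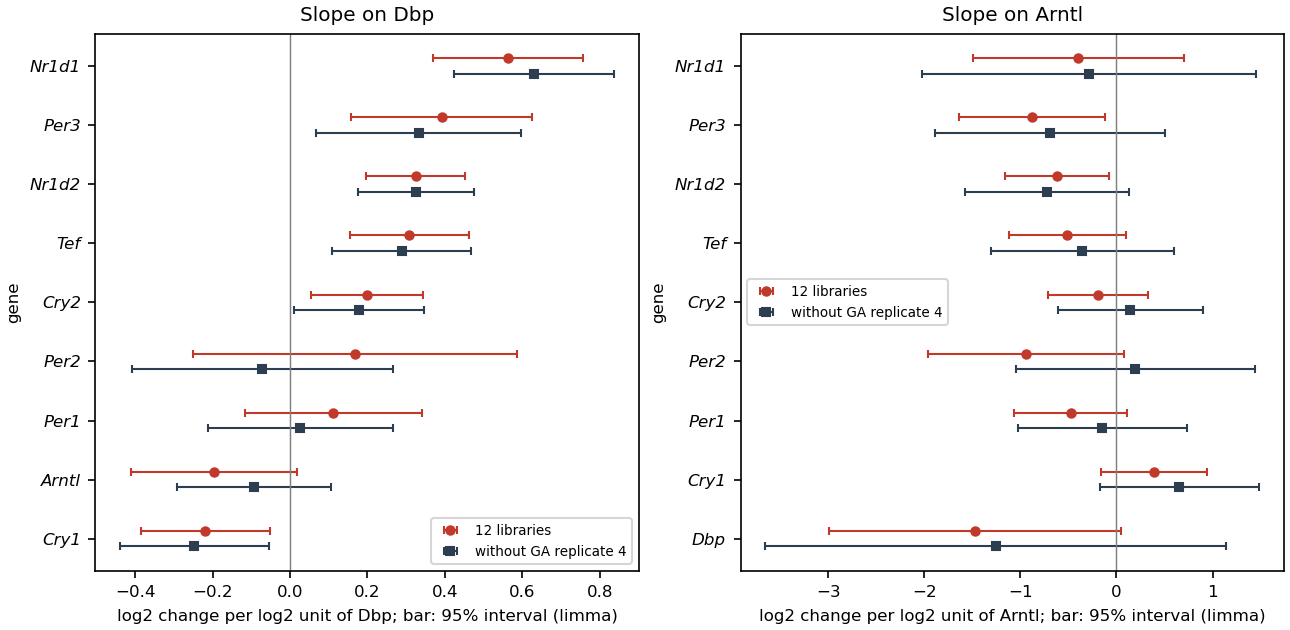
Slope of each clock gene on Dbp (left) and on Arntl (right), in log2 units per log2 unit of the reference gene with the group in the fit, over 12 libraries (circles) and without GA replicate 4 (squares), with 95% intervals from limma. On Dbp, Nr1d1, Per3, Nr1d2, Tef and Cry2 lie above 0 and Cry1 below 0 in both fits, whereas on Arntl the intervals without GA replicate 4 all include 0.

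Some other gene lists moved along with Dbp. The score of 14 immediate early genes (mean log2 level) had r = -0.73 with Dbp over the 12 libraries, and 13 of the 14 had a slope on Dbp below 0, where over all genes 8889 of 16843 were below 0. That score was 2.35, 2.78 and 2.64 in GA replicate 1, GA replicate 4 and vehicle replicate 3, the libraries with the most Dbp, and 2.31 to 3.50 in the other 9. The score of 13 clock kinases and ubiquitin ligases had r = 0.76 with Dbp (0.83 without GA replicate 4) over a narrow range, from 2.91 to 3.08 in the 12 libraries, and of the 12 tested 6 had a slope on Dbp above 0. The score of 10 neutrophil genes, none of them at 0 in all libraries, had r = -0.60 with Dbp, at 1.17, 0.87 and 1.59 in the same 3 libraries and 0.39 to 4.11 in the other 9. With the neutrophil score in the fit on Dbp described above, 1203 genes (7.14%) and 5 of the 9 clock genes had an unadjusted p below 0.05 in limma, namely Nr1d1, Nr1d2, Tef, Per3 and Cry1. Skeletal muscle (r = 0.15), tongue gland (-0.15), oral epithelium (-0.11), fibroblast (-0.24), glucocorticoid-induced genes (-0.15) and the library total (-0.05) had weaker relations. Arntl had its highest r with the fibroblast score (0.42, and 0.22 without GA replicate 4), whose lowest value of the 12, 2.35, was in GA replicate 4. In bulk tissue, fewer cells of a type and less RNA per cell cannot be told apart, and the part of these markers in the relations was not tested beyond the fits named. The oral epithelial markers Krt5, Krt14 and the others of a list of 10 were read in all 12 libraries.

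Of 12 further genes listed with the clock, most of them transcription factors, 11 passed the filter on low levels (Rorb did not). In the GA comparison 4 were higher and 7 lower (median -0.06), and 0 had an adjusted p below 0.1. On Arntl, 3 of the 11 had an unadjusted p below 0.05 in limma, where 1.37% of all genes had one. Npas2, which can take the place of CLOCK beside ARNTL, had a slope of 0.82 (SE 0.25). Its r with Arntl was 0.80, at place 3 from the highest among 12146 genes outside the 10 whose mean reached 1 FPKM. Npas2 was lowest in GA replicate 4, at 0.909 scaled FPKM, and without that library its r with Arntl was 0.58. Ciart, a repressor of the ARNTL pair, had a slope of -0.997 (SE 0.34), and Nfil3, which competes with DBP and TEF for the D-box, one of 1.27 (SE 0.45). Nfil3 was at 4.61, 5.49 and 12.2 scaled FPKM with vehicle and at 2.21, 6.09 and 15.9 with GA, and its lowest library was GA replicate 4. Ciart was at 0.508, 0.798 and 0.983 with vehicle and at 0.522, 1.02 and 2.82 with GA, and its highest was GA replicate 4.

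On Dbp, 6 of these 11 genes had an unadjusted p below 0.05 in limma, where 8.04% of all genes had one. Of the 6 slopes, 2 were above 0 (Ciart 0.36, Bhlhe41 0.39) and 4 below (Nfil3 -0.61, Arntl2 -0.25, Bhlhe40 -0.25 and Timeless -0.25). Nfil3 came at place 4 of 16843 by this p. Clock itself, the constant partner of ARNTL, had a slope on Dbp of -0.07 (SE 0.07). The 12 tested kinases and ubiquitin ligases act on the PER and CRY proteins or on other parts of the loop. Of these, 1 had an unadjusted p below 0.05 on Dbp (8.04% of all genes had one) and 0 had one on Arntl (1.37%). Both counts are near those shares. The 1 on Dbp was Usp2 (slope 0.39, SE 0.09), a deubiquitinase whose transcript is known to cycle in many tissues. Casein kinase 1 delta (Csnk1d) and epsilon (Csnk1e) had slopes on Dbp of -0.04 (SE 0.07) and -0.05 (SE 0.07).

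Among those 12146 genes, the ones most like Arntl over the 12 libraries were Bloc1s4 (r = 0.82), Dhx32 (0.80), Npas2 (0.80), Gk5 (0.80) and Fadd (0.78), and those most opposed were Mtfmt (-0.85), Nudt12 (-0.78), Bltp3a (-0.77), Fdxr (-0.77) and Slc12a4 (-0.76). When GA replicate 4 was left out, the r with Arntl was 0.34 for Fadd, 0.51 for Gk5 and 0.58 for Npas2. Most like Dbp were Foxo6 (0.86), Inpp5k (0.85), Rhbdl3 (0.85), Dnajc4 (0.84) and Ranbp6 (0.83). Most opposed to Dbp were Rrm2 (-0.93), a subunit of ribonucleotide reductase, Nfil3 (-0.86), Alg11 (-0.85), Cfdp1 (-0.84) and Prim1 (-0.84), a subunit of DNA primase. Over the 11 libraries without GA replicate 4 the r of Rrm2 was -0.91 and that of Nfil3 -0.81.

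The comparison of GA with vehicle asked whether the treatment moved the clock genes. With limma, 0 of 16844 genes (0%) and 0 of the 10 clock genes passed both limits, an adjusted p below 0.1 and a log2 difference of 0.58 or more in either direction (smallest adjusted p 0.999). Before adjustment, 354 genes (2.1%) had a p below 0.05, with them 1 of the 10 clock genes, Tef. When 1 library was left out, 0 to 3 of the 10 and 1.45% to 5.13% of all genes had such a p, with 0 clock genes without vehicle replicate 1, 4 or 5 or GA replicate 4 or 5. None of the 10 had one with the Y-linked (447 of 16844 genes), neutrophil (423) or fibroblast (487) score in the fit. With a replicate block none of them had one either (229 genes). On FPKM as deposited 2 of the 10 had one (312 of 16852 genes). The count was also 2 in a weighted fit on recovered reads (326 of 16182 genes) and with an oral epithelium score (712 of 16844 genes). Tef had a log2 difference of 0.53 (SE 0.22, adjusted p = 0.999 in limma, exact permutation p = 0.0584), and 6 of 6 GA libraries were above the vehicle median. Arntl differed by -0.46 (SE 0.22, exact permutation p = 0.0628), with 0 of 6 above the vehicle median. Per3 differed by 0.65 (SE 0.31, exact permutation p = 0.0693) and Per2 by 0.73 (SE 0.39, exact permutation p = 0.0996), with 5 of 6 above for each. The study reported Per2 and Per3 as upregulated by GA, from an edgeR analysis of counts with the same limits. With limma on FPKM neither passed here (adjusted p = 0.999 for each), and the tests and the input differ. Both genes were picked by the study from these libraries, so their direction here is not independent evidence. Dbp differed by 0.53 with an SE of 0.58, and its 95% interval ran from -0.73 to 1.79. Nr1d2 (0.22), Cry2 (0.17), Cry1 (0.06), Nr1d1 (-0.16) and Per1 (-0.18) had SEs of 0.17 to 0.37, and none had an exact permutation p below 0.32. All exact tests were two-sided, the smallest p that 6 against 6 libraries allow is 0.00216, and 0 of 10 genes had an exact p below 0.05. For 4 genes the exact p moved both ways with single libraries. With 1 library left out, the exact permutation p of Tef ran from 0.013 (without vehicle replicate 3) to 0.119 (without GA replicate 4). That of Arntl ran from 0.0368 (without GA replicate 2) to 0.149 (without vehicle replicate 1). For Per3 it ran from 0.0152 (without GA replicate 2) to 0.149 (without GA replicate 4). For Per2 it ran from 0.0238 (without GA replicate 1) to 0.206 (without vehicle replicate 4). The exact test was not run over all genes. The 10 differences had a median of 0.20, with 7 above 0, where over all genes 8109 were above 0, 8735 below, and the median was -0.01.

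With GA replicate 4 left out, the difference was 0.40 for Per2, 0.47 for Per3, 0.42 for Tef, 0.25 for Dbp, -0.28 for Arntl and -0.31 for Per1. The difference thus moved by over 1.5 times for Per2, Dbp, Arntl and Per1, and also for Cry2 (0.09), Nr1d2 (0.13) and Nr1d1 (-0.24). In that fit 300 genes (1.78%) and 0 of 10 clock genes had an unadjusted p below 0.05 in limma, while 5 of 5 GA libraries were still above the vehicle median for Tef and 0 of 5 for Arntl. Reads on Y-linked genes were present in 4 of 6 vehicle libraries and 1 of 6 GA libraries, so the groups were not balanced in sex. With the score of these genes in the fit, the difference was 0.43 for Per2, 1.00 for Dbp, 0.26 for Nr1d1 and -0.43 for Arntl. The neutrophil score was 0.52 to 4.11 with vehicle and 0.39 to 3.24 with GA, and with it in the fit the difference was 0.15 for Dbp, 0.40 for Per3 and 0.39 for Tef.

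**Figure D5:**
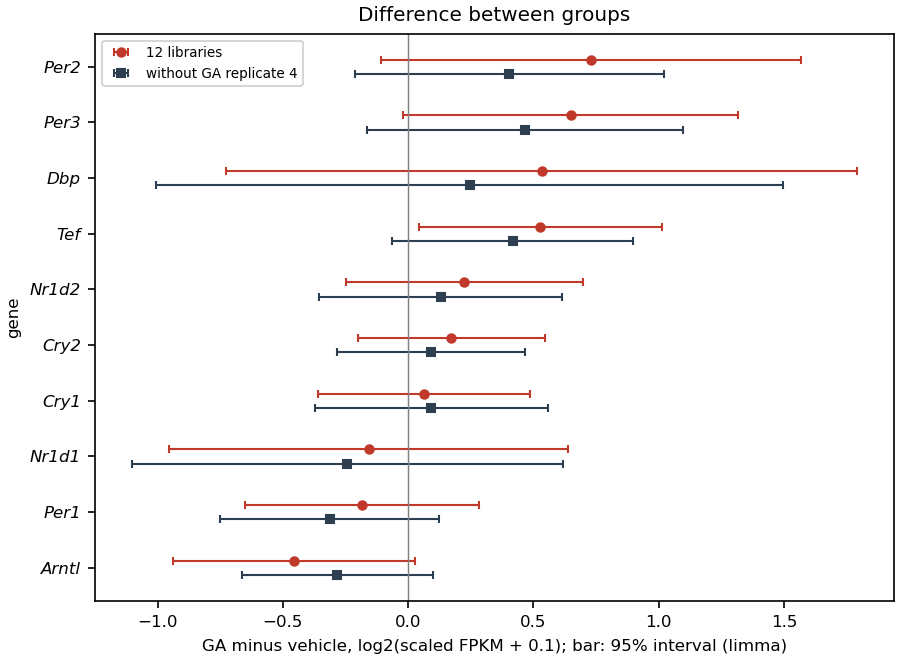
Difference of GA minus vehicle in log2(scaled FPKM + 0.1) for each clock gene, over 12 libraries (circles) and without GA replicate 4 (squares), with 95% intervals from limma. Only the interval of Tef over 12 libraries leaves out 0 (difference 0.53), and without GA replicate 4 none does.

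The 10 genes lie on 8 chromosomes of GRCm38, where GENCODE M21 places Per1 at chr11:69095217-69109960, Per2 at chr1:91415982-91459324, Per3 at chr4:151003652-151044665, Cry1 at chr10:85131700-85185064, Cry2 at chr2:92403646-92434043, Nr1d1 at chr11:98767932-98775333, Nr1d2 at chr14:18204054-18239127, Dbp at chr7:45705088-45710203, Tef at chr15:81802421-81826863 and Arntl at chr7:113207465-113314126. The strand setting of the read counting is not stated, and a gene on the other strand overlaps 18.0% of the exon bases of Dbp (Sphk2), 8.55% of Nr1d1 (Thra), 4.67% of Cry2 (D930015M05Rik), 2.45% of Tef (Gm17597) and 0.439% of Arntl (Gm45355). Reads from these stretches cannot be told apart by strand. The exons of Per1, Per2, Per3, Cry1 and Nr1d2 overlap no other gene.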

How the data were processed

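Bulk RNA-seq was made from 12 tongue libraries with a SMARTer mRNA kit. Per the study's methods, the authors used HISAT2 for alignment to mm10, featureCounts for counting of uniquely mapped reads and edgeR for their tests (versions, and whether counting used strand, are not given in the sources used here). They deposited FPKM values, which are reads divided by exon length and library total. Of 55463 rows, 22965 had no gene name and were left out of scaling and tests. They held 16.2% to 25.5% of the summed FPKM of a library.

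With exon lengths of GENCODE M21 less a constant of each library (17.0 to 24.1 bases), 97.6% to 98.3% of low values (up to 8 reads) of matched genes were whole reads within 0.02, which gave the library totals. The values of the clock genes lay within 0.0704 of a whole read. A trimmed mean of log ratios, unweighted, scaled the libraries (factors 0.881 to 1.08). The 16844 genes whose mean reached 0.1 FPKM were fitted with limma 3.58.1 in R 4.3.3 on log2(scaled FPKM + 0.1) with a variance trend, and p-values were adjusted over all genes tested by the Benjamini-Hochberg method. Differences on this scale understate the change of low genes. The limits for a call were an adjusted p below 0.1 and, for GA against vehicle, a log2 difference of 0.58 or more as in the study's methods. Single genes were compared by an exact permutation test and pairs by 100000 permutations or, within a group, by all pairings.

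The clock genes and gene lists were chosen with earlier results of these data known, and the fit on Dbp was added after the levels had been seen. Other genes named were those of the 2 further clock lists with the smallest slope p, and the 5 highest and 5 lowest by r with Arntl and with Dbp. The kinases Csnk1d and Csnk1e and the factor Clock were chosen after their values were seen. Dbp, Nr1d1, Nr1d2, Tef, Per3 and Cry2 were grouped after their correlations had been seen. The fits were tested on simulated data. Scaling, pseudocount, filter, trend, covariates, a replicate block, a weighted fit on recovered reads (limma-voom) and each left-out library were varied. RefSeq promoter windows were matched by symbol.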

Additional observations from a re-analysis of the deposited data

Results flagged for a closer look

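Among the 20 groups of 6 levels (10 clock genes, vehicle and GA), 3 had 1 library far from the others of its group, with a gap to the nearest library, as a share of the group's range on the scaled FPKM scale, over the 95% limit of Dixon's test. Chance gives such a gap in about 1 of 20 groups. Per2 in GA replicate 4 was at 5.93 scaled FPKM (gap 0.681 of the range, and 0.458 on the log2 scale). Nr1d1 in vehicle replicate 3 was at 35.8 (0.72, and 0.597 on the log2 scale), and Dbp in the same library was at 4.47 (0.709, and 0.50 on the log2 scale). On the log2 scale, used for all tests, none of the 3 gaps passed that limit.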

How the results depend on the processing

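Clock genes called stayed at 0 in the GA comparison, the slope on Arntl, its difference between groups and the slope on Dbp, under each alternative run. Calling GA differences at an unadjusted p below 0.05 gave 354 genes and 1 clock gene (Tef). Leaving out 1 library gave 0 to 1 genes called in the GA comparison (the small RNA gene Gm25290, with 0 to 5 reads, without vehicle replicate 4) and 0 to 1 on Arntl (Sprr2j-ps, a pseudogene, without vehicle replicate 1), and the difference in that slope between groups called 5 without vehicle replicate 2 (Plk3, Cxcl9, Cpe, Lgalsl and Tmem229b), 1 without GA replicate 5 and 1 with a pseudocount of 1 (Cxcl9 in both), all named after their values were seen. The slope on Dbp called 1 gene, Nfil3 (adjusted p = 0.0918 in limma), with an oral epithelium score in the fit. This fit, that with a fibroblast score and the slope on Dbp were chosen after seeing the data. Clock genes with an exact permutation p below 0.05 between groups numbered 0 to 2 when 1 library was left out. On FPKM as deposited they numbered 1 (Tef), and no share over all genes was computed for this test. Pairs with a permutation p below 0.05 numbered 24 over all libraries, 19 by Spearman's rho and 17 without GA replicate 4. They numbered 11 within vehicle and 10 within GA, where 6 libraries enter each. No share over pairs of all genes was computed for these counts. Clock genes with an unadjusted p below 0.05 in limma numbered 5 to 7 on Dbp, 0 to 5 on Arntl and 0 to 3 in the GA comparison over the alternatives.

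The log2 difference of Cry1 turned to -0.12 with the Y-linked score and ranged from -0.062 to 0.17 over the fits that left out 1 library (below 0 without vehicle replicate 3 and GA replicate 2). That of Nr1d1 turned to 0.26 with the Y-linked score and ranged from -0.38 to 0.051 (above 0 without the same libraries). Over the left-out libraries the slope on Arntl ranged from -1.37 to 0.20 for Per2 and from -0.28 to 0.15 for Cry2, and the slope of Per2 on Dbp ranged from -0.071 to 0.43, with the sign turned without GA replicate 4 in each case. The r of Arntl and Per2 was 0.43 within vehicle. The cause was not tested. Over all genes, the deviations of same-numbered libraries from their group means had correlations of -0.37 to 0.08, so no pairing by number was seen. A link that touches few genes would not show in these correlations. A replicate block gave 0 genes called in each fit, with 229 genes at an unadjusted p below 0.05 for GA against 354 without it.

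Totals were at least 18039935 reads a library and the fewest reads on a clock gene were 47. The time of collection is not known, and no correction for it was made.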
